A study of Homo sapiens with 26 samples.

Results

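The step from 24 h to 72 h of treatment with TGF-beta 1 was described from 6 of the 26 arrays of a time course in A549, a cell line from a human lung adenocarcinoma. All arrays labelled with TGF-beta 1 for 72 h (3 arrays) were set against all arrays labelled with TGF-beta 1 for 24 h (3 arrays). Before treatment the cells had gone 24 h without serum, and then received porcine TGF-beta 1 at 5 ng/mL, so that both groups share the line, the starvation, the agent and the dose and differ in time. The other arrays come from untreated cells (3 arrays) and from cells treated for 0.5, 1, 2, 4, 8 or 16 h (3 arrays each, 2 at 2 h). Each repeat of the experiment carries a number in the labels, and the 3 arrays of a group come from repeats 1, 2 and 3. No untreated cells kept for 24 h or 72 h are among the groups, so that treatment time and time in culture without serum cannot be told apart.

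TGF-beta 1 is a cytokine that binds a pair of receptor kinases and acts largely through SMAD transcription factors. In epithelial cells it slows the cell cycle and drives the epithelial-mesenchymal transition, in which cells lose E-cadherin and other junction proteins and gain matrix, contractile and N-cadherin genes. Negative feedback genes such as the inhibitory SMAD7 switch on early, whereas the loss of a differentiated secretory program and the build-up of matrix can take days. A549 cells keep parts of an airway and a liver-like secretory program and have a constitutively active NRF2 pathway, the main switch of antioxidant genes.

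The labelled line was checked against markers. The keratin genes KRT8 and KRT18 had mean levels of 14.24 and 14.94 at 72 h. Of 6 tested genes that mark the A549 line, 5 were lower at 16 h than in untreated cells and 3 fell in the step. AKR1C1 and ALDH1A1 had 14.24 and 14.66 at 72 h, while ALDH3A1 was at 7.57, down from 14.20 untreated. All levels are log2 values on the deposited scale, where zero signal is 6.64, the floor 5.64 and the median of every array at 7.96. The surfactant gene SFTPC (8.31 at 72 h) and the club cell gene SCGB1A1 (7.52) lay near that median. Among markers of other cells, PDGFRA, PDGFRB and COL1A2 of fibroblasts (7.66, 7.38 and 7.91 at 72 h), VWF of endothelium (7.34) and CD3E and ITGAM of leukocytes (7.86 and 7.37) lay at or below it. Of the 7 tested fibroblast genes, PDPN (8.48) and LUM (9.52) lay above that median by more than 0.5, and LUM rose in the step. Of 3 tested endothelial and 4 tested leukocyte genes, none changed at an adjusted p below 0.05. Their steps ran from -0.18 to 0.26 and from -1.39 to -0.01. In 1 leukocyte gene all 72 h arrays lay below all 24 h arrays, and the levels of the members not named are not given here. In these bulk samples, fewer cells of a type and less RNA per cell cannot be told apart.

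The arrays of each time were alike, and those at 24 h less so. Between 28834 and 31997 probe sets were detected at 24 h and between 30877 and 32676 at 72 h. The actin 3'/5' ratio, a sign of RNA quality, was 1.00 ± 0.0264 at 24 h and 1.01 ± 0.0337 at 72 h (SD, n = 3). Across genes, arrays correlated at a median r of 0.975 within 24 h, 0.987 within 72 h and 0.965 between both times. The deposited names of 24 h replicates 1 and 3 end in an r whose meaning is not given in the sources used here (so does that of 1 array at 8 h), and the numbers in the array names of the 72 h arrays follow one another (25, 26 and 27), while each other group takes its numbers from separate runs of 8. The labels do not say whether these numbers follow an order of processing. Whether what they stand for bears on the step was not tested and cannot be told apart from time.

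From 24 h to 72 h, 690 of 14771 tested genes were higher (4.67%) and 657 were lower (4.45%), 1347 in all (9.12%), at an adjusted p below 0.05. Counts of list members given below are to be read against these shares, since some lists lie near or below them. The median size of these changes was 0.59 on the log2 scale, against a median step of 0.03 over all genes tested, where the step is the 72 h mean minus the 24 h mean. Of the 1347, 223 changed at least 2-fold, 101 upwards and 122 downwards. For comparison, 10 genes were higher (0.0677%) and 22 lower (0.149%) at 24 h than at 16 h, 32 in all (0.217%), and 5201 genes (35.2%) differed between 24 h and untreated cells. The count of 1347 fell to 628 without 72 h replicate 2, 679 without 24 h replicate 1, 812 without 72 h replicate 3 and 881 without 72 h replicate 1. It was 147 without both 24 h arrays whose names end in r, a choice made after seeing the data that leaves 1 array at 24 h.

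**Figure D1:**
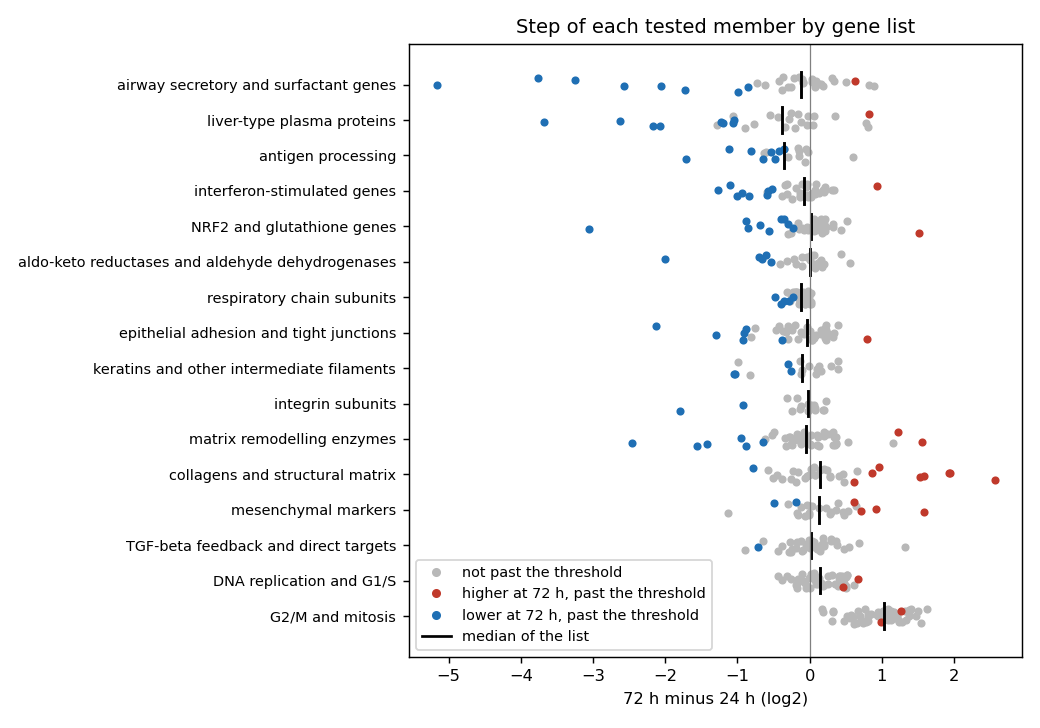
Log2 step from 24 h to 72 h (x axis) of each tested member of 16 gene lists (1 point per gene), with the median of each list as a bar and members past the threshold in colour. Secretory, plasma protein and antigen processing genes extend to the left, matrix genes to the right, and all 60 G2/M genes lie above 0 although 2 of them passed the test.

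Genes of the airway secretory program, among them MUC5B with the largest fall of all tested genes, were lower at 72 h. MUC5B, a gel-forming airway mucin, measured 11.25, 10.51 and 11.66 at 24 h and 5.64, 5.64 and 6.61 at 72 h, a step of -5.17 ± 0.34 (limma standard error, n = 3 per group, adjusted p 1.58e-09). Of its 72 h arrays, 2 stood at the floor of the scale, below the level of zero signal, so that its true fall may be larger than the value given. LCN2, the iron-siderophore binding lipocalin, went from 11.15, 9.92 and 10.92 to 7.82, 6.11 and 6.77 (-3.77 ± 0.44, adjusted p 7.84e-06). SLPI, a secreted inhibitor of leukocyte proteases, went from 11.86, 10.67 and 12.69 to 8.47, 8.30 and 8.71 (-3.24 ± 0.29, adjusted p 2.68e-07). For all 3 genes every 72 h array lay below every 24 h array, a condition for naming a gene among the largest changes. Replicate 2 was the lowest of the 24 h arrays. MUC5AC, the other main airway mucin, fell by 2.57 ± 0.36 (adjusted p 6.61e-05), and TFF1, a small trefoil peptide that is secreted with mucins, fell by 2.06 ± 0.30 (adjusted p 0.000132). At 16 h none of MUC5B, LCN2, SLPI or MUC5AC was past the threshold against untreated cells (changes of -0.67, -0.75, -0.52 and -0.40). By 24 h MUC5B, LCN2 and MUC5AC were already lower than in untreated cells, by 1.97, 2.22 and 1.68 (adjusted p 6.68e-05, 0.000352 and 0.000708). Their step thus continued a fall that was past the threshold at 24 h, and the 24 h change of SLPI is not given here.

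Of the 34 tested genes of airway secretion and surfactant, 8 fell and 1 rose (2 with the experiment number as a block), with a median step of -0.12. The 1 that rose was GATA6, a transcription factor of the lung epithelium (+0.64 ± 0.20, adjusted p 0.0444), named here after its values were seen, and it passed in 0 of the 6 fits that left out 1 array (adjusted p 0.0850 to 0.127), nor with its probe sets averaged (0.352). Between 6 and 8 genes fell in those fits, and 4 without both arrays named with r.

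Beyond that list, other secreted proteins fell as far. CST1, CST2 and CST4, the salivary-type cystatins, which inhibit cysteine proteases, fell by 3.54, 2.69 and 2.75, from means of 12.59, 11.66 and 11.68 to 9.05, 8.97 and 8.93. These 3 genes are near-identical, and their probe sets may not tell them apart. NTS, the precursor of the peptide neurotensin, measured 11.34, 11.45 and 13.38 at 24 h and 8.76, 8.18 and 9.50 at 72 h (-3.24 ± 0.44, adjusted p 5.39e-05). CFD, the protease that starts the alternative complement pathway, fell from 12.31 to 9.13 (-3.17 ± 0.44, adjusted p 6.02e-05), and FCGBP, a mucus protein, from 9.91 to 7.22 (-2.69 ± 0.41, adjusted p 0.000232). The means of CST1, CST2, CST4, CFD and FCGBP at 16 h were within 0.1 of those in untreated cells, with a standard error of about 0.4 for each change (0.38 to 0.44). The untreated arrays spread widely, at 11.90, 14.45 and 13.53 for CST1 and 8.74, 11.53 and 11.21 for FCGBP. At 1 h the means of CST1 and FCGBP were 13.95 and 11.35 against 13.29 and 10.49 untreated. They lay within the range of the untreated arrays, and the change at 1 h was not tested.

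**Figure D2:**
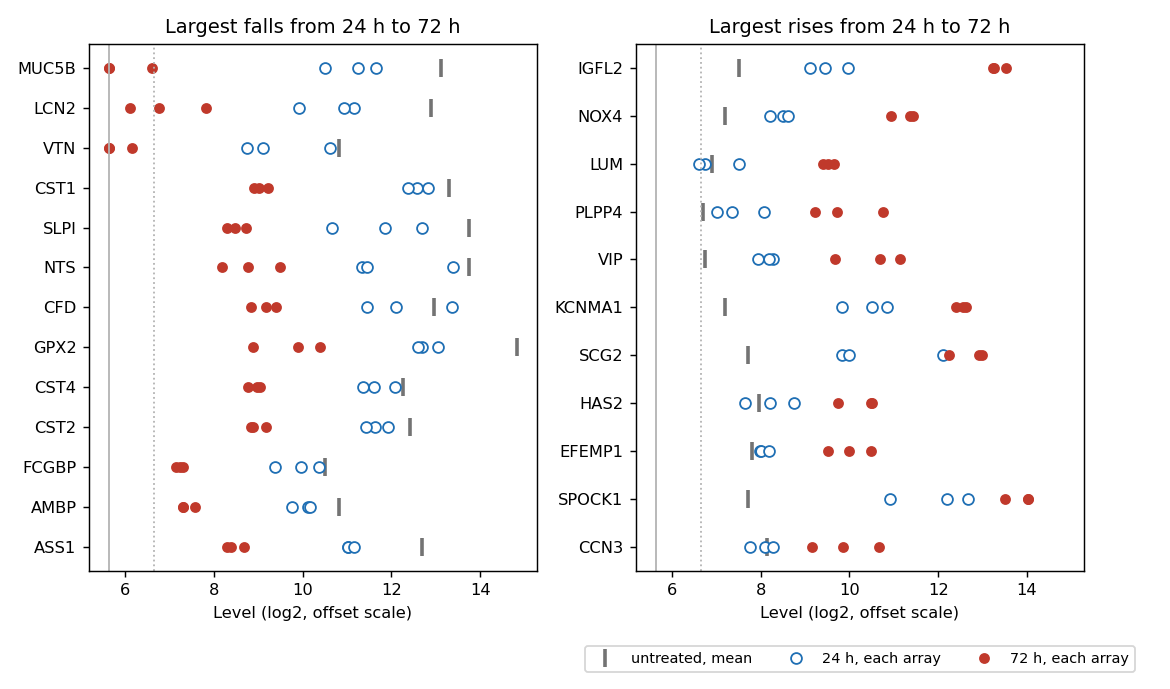
Level on each array (log2, x axis) at 24 h (open circles) and 72 h (filled circles) for genes with the largest falls and rises, with the untreated mean as a grey bar, the level of zero signal dotted and the floor as a solid line. By the rule for choosing these genes, the 3 arrays at 72 h lie beyond all 3 arrays at 24 h. SCG2 has the narrowest gap (12.10 against 12.24).

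Plasma proteins that are made mainly by the liver also fell. VTN, vitronectin, measured 9.12, 8.73 and 10.62 at 24 h and 5.64, 5.64 and 6.15 at 72 h (-3.68 ± 0.58, adjusted p 0.000319). AMBP, which encodes the precursor of alpha-1-microglobulin and bikunin, went from 9.76, 10.12 and 10.17 to 7.30, 7.31 and 7.57 (-2.62 ± 0.24, adjusted p 2.67e-07). All arrays at 72 h lay more than 2 log2 units below the lowest 24 h array in these 2 genes, and 2 of the VTN arrays were at the floor. CP, the copper-carrying ferroxidase ceruloplasmin, fell by 2.17 ± 0.30 from a mean of 9.81 (adjusted p 5.98e-05), after a change of -2.60 at 16 h against untreated cells. Of 28 tested genes of this kind, 8 fell and 1 rose, with a median step of -0.39. The number that fell was 4 without 72 h replicate 2, 5 without 72 h replicate 1, 72 h replicate 3, 24 h replicate 1 or 24 h replicate 3, and 1 without both arrays named with r. The 1 that rose was F12, coagulation factor XII (+0.83 ± 0.21, adjusted p 0.0151, named after its values were seen), which passed in 2 of the 6 fits that left out 1 array (highest adjusted p 0.0676). ASS1, the urea cycle enzyme that joins citrulline and aspartate, fell outside this list, from 11.03, 11.03 and 11.16 to 8.68, 8.30 and 8.38 (-2.62 ± 0.19, adjusted p 1.13e-08).

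Some epithelial junction and receptor genes that were lower at 16 h fell further. Of 17 genes of epithelial adhesion that were lower at 16 h than in untreated cells, 5 fell in the step. CDH1, E-cadherin, measured 10.02, 9.53 and 9.71 at 24 h and 9.18, 8.31 and 9.01 at 72 h (-0.92 ± 0.17, adjusted p 0.00121), from 13.09 in untreated cells. ERBB3, a receptor for neuregulins, went from 10.74, 10.49 and 11.07 to 9.53, 9.39 and 9.50 (-1.29 ± 0.15, adjusted p 6.80e-06), from 13.22 in untreated cells. In both genes all 72 h arrays lay below all 24 h arrays. Under other choices of processing the step was as small as -0.58 for CDH1 and -0.45 for ERBB3. CLDN2, a pore-forming claudin of tight junctions, fell by 2.13 ± 0.53 (adjusted p 0.0135), a call that ended without 72 h replicate 1 (0.0533), 72 h replicate 2 (0.0773) or 24 h replicate 3 (0.0866). EPCAM, an epithelial adhesion molecule, had a step of -0.75 ± 0.29 (adjusted p 0.107, and 0.0136 with the experiment number as a block).

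Junction genes did not all move one way. DSP, desmoplakin, which ties desmosomes to keratin filaments, measured 13.03, 12.97 and 12.84 at 24 h and 13.65, 13.84 and 13.72 at 72 h (+0.79 ± 0.08, adjusted p 2.97e-06), while its mean in untreated cells was 12.93 and at 16 h 13.02. JUP, plakoglobin of the same junctions, went from 12.88, 12.89 and 12.84 to 12.02, 11.95 and 11.93 (-0.90 ± 0.11, adjusted p 1.41e-05), after a rise of 0.96 at 16 h. Thus 2 desmosome genes moved in opposite directions with no overlap between times. Of the 41 tested genes of epithelial adhesion, 6 fell and DSP alone rose (8 and 2 with the experiment number as a block), with a median step of -0.03. Of all genes, 4.45% fell and 4.67% rose. The number that fell was 3 without 72 h replicate 2, 4 without 72 h replicate 1 or 24 h replicate 1, and 2 without both arrays named with r. Among 17 keratin and intermediate filament genes, LMNA of the nuclear lamina (-1.04), KRT80 (-1.05), KRT8 (-0.30) and KRT18 (-0.25) fell and none rose. LMNA and KRT18 passed in all 6 fits that left out 1 array, KRT8 failed without 72 h replicate 2 (0.0794) or 24 h replicate 1 (0.0610), and KRT80 passed only without 24 h replicate 3.

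The largest rise was that of IGFL2. IGFL2, a secreted protein of the insulin-like growth factor-like family, measured 9.96, 9.46 and 9.11 at 24 h and 13.23, 13.52 and 13.25 at 72 h (+3.82 ± 0.35, 14.2-fold, adjusted p 2.68e-07). NOX4, an NADPH oxidase that makes hydrogen peroxide, went from 8.50, 8.62 and 8.21 to 10.94, 11.36 and 11.43 (+2.80 ± 0.17, 6.96-fold, adjusted p 5.07e-10). LUM, lumican, a proteoglycan that organises collagen fibrils, went from 6.75, 7.52 and 6.61 to 9.65, 9.52 and 9.41 (+2.56 ± 0.27, adjusted p 1.91e-06). The 24 h arrays of LUM lay around zero signal, so that its step measures a rise from the background and not a ratio of measured levels, and every 72 h array was more than 1 log2 unit above the array median. LUM was also the only 1 of 7 tested fibroblast markers to change, and the steps of the other 6 ran from -0.30 to 0.50. HAS2, which synthesises hyaluronan, rose from 8.20 to 10.24 (+2.04 ± 0.30, adjusted p 0.000144), with 72 h arrays of 9.73, 10.48 and 10.51 above 24 h arrays of 7.64, 8.21 and 8.75.

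Of 33 tested collagen and structural matrix genes, 8 rose and 1 fell, with a median step of 0.15. Those that rose were LUM, EFEMP1 (fibulin-3, +1.94), SPOCK1 (a testican proteoglycan, +1.93), POSTN (periostin, +1.59), FBN1 (fibrillin-1, +1.53), FBN2 (fibrillin-2, +0.96), LTBP1 (latent TGF-beta binding protein, +0.87) and COL5A2 (a collagen V chain, +0.62). SPOCK1 measured 12.19, 12.66 and 10.91 at 24 h and 14.02, 14.03 and 13.50 at 72 h, from 7.71 in untreated cells. FBN1 measured 7.70, 8.36 and 7.69 at 24 h and 9.39, 9.69 and 9.26 at 72 h, and its mean at 16 h was 7.81 against 8.02 in untreated cells. COL27A1, a fibril-forming collagen, fell (-0.78 ± 0.19, adjusted p 0.0110, named after its values were seen), and it did not pass without 24 h replicate 1 (0.0594) or 24 h replicate 2 (0.0550). COL1A1, the main collagen I chain, was 13.34, 13.54 and 13.16 at 24 h and 13.62, 13.44 and 13.86 at 72 h, so that the times overlapped (adjusted p 0.736). The number that rose was 5 without 72 h replicate 2 or 24 h replicate 1 and 1 without both arrays named with r. FBN2 and COL5A2 passed in 0 of the 6 fits that left out 1 array (highest adjusted p 0.164 and 0.142), with COL5A2 at 0.244 when its probe sets were averaged, and EFEMP1 did not pass without 72 h replicate 2 (0.0787) or 24 h replicate 1 (0.0514).

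Among 27 mesenchymal markers, CDH11, ACTA2, POSTN and COL5A2 rose and S100A4 and S100A6 fell, with a median step of 0.13. ACTA2, smooth muscle actin, ranged from 10.32 to 11.09 at 24 h (replicates 1 and 3) and measured 11.39, 11.64 and 11.51 at 72 h, with no overlap (+0.71 ± 0.16, adjusted p 0.00771). Its mean had been 10.97 at 16 h against 10.81 in untreated cells, and it no longer passed without 24 h replicate 1, the low array (0.0635), or with its probe sets averaged (+0.31, 0.0673). CDH11, the mesenchymal cadherin-11, rose by 0.92 ± 0.23 (adjusted p 0.0161, but 0.114 without 72 h replicate 2, 0.0996 without 24 h replicate 3 and 0.0510 in a fit on only the groups compared). S100A4, a calcium-binding protein of motile cells, fell by 0.49 ± 0.08 (adjusted p 0.000253), and its relative S100A6 fell by 0.19 ± 0.05 (adjusted p 0.0190). S100A6 did not pass without 72 h replicate 1, 2 or 3 (0.0590, 0.0591 and 0.0582) or 24 h replicate 1 (0.113), and its probe sets averaged gave +0.05 (0.810). The list had 2 rises without 72 h replicate 2, 24 h replicate 1 or 24 h replicate 3, and none without both arrays named with r.

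Other genes named for the size of their rise have a range of roles. RUNX2, a transcription factor of bone and matrix genes, measured 9.54, 9.78 and 9.35 at 24 h and 10.95, 11.33 and 11.01 at 72 h (+1.54 ± 0.23, adjusted p 0.000187), after a rise of 2.46 at 16 h. KCNMA1, a calcium-activated potassium channel, went from 10.51, 10.85 and 9.83 to 12.39, 12.64 and 12.55 (+2.13 ± 0.29, adjusted p 6.40e-05). Both lay near 7 in untreated cells (6.64 and 7.20). They had no overlap between 24 h and 72 h, as the rule for naming them required. INHBA, a subunit of activin A, had 10.13, 8.97 and 7.71 at 24 h and 10.36, 10.97 and 10.42 at 72 h (+1.64 ± 0.43, adjusted p 0.0190). The 24 h arrays of INHBA spread widely, and the call ended without 72 h replicate 2 (0.0998) or 24 h replicate 3 (0.118), and in a fit on only the groups compared (0.0706). SFRP1, a secreted antagonist of Wnt ligands, rose from 10.16 to 11.26 (+1.09 ± 0.13, adjusted p 1.41e-05), but its probe sets averaged gave +0.25 (adjusted p 0.364). The neuropeptide gene VIP rose by 2.37 ± 0.34, the granule protein gene SCG2 by 2.08 ± 0.45 and PLPP4, a lipid phosphatase, by 2.41 ± 0.33 (adjusted p 8.84e-05, 0.00523 and 5.77e-05).

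The insulin-like growth factors themselves went in opposite directions. IGF1 measured 8.83, 8.18 and 8.91 at 24 h and 9.94, 10.16 and 9.93 at 72 h (+1.37 ± 0.20, adjusted p 0.000131), while IGF2 measured 10.25, 10.06 and 10.65 at 24 h and 8.19, 8.07 and 8.53 at 72 h (-2.06 ± 0.21, adjusted p 1.20e-06). For each gene the arrays of both times did not overlap, as the rule for naming late and reversed changes required. The mean of IGF2 was 8.13 before treatment, 10.13 at 16 h and 8.26 at 72 h, and IGF1 had 8.19, 8.26 and 10.01 at the same times. The list for this axis had 20 tested genes and counted IGFL2, an insulin-like growth factor-like gene, as a member. Of these genes, 3 rose (IGFL2, IGF1 and PAPPA, a protease that frees insulin-like growth factors from binding proteins, +1.00) and 1 fell (IGF2). PAPPA did not pass without 72 h replicate 2 (0.0997), 72 h replicate 3 (0.135), 24 h replicate 1 (0.110) or 24 h replicate 2 (0.103), nor with its probe sets averaged (0.0989).

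Among feedback and direct target genes of the SMAD pathway, 1 of 36 passed the test over the same interval. SMAD7 measured 11.98 ± 0.02 (SD, n = 3) at 24 h and 12.08 ± 0.06 at 72 h, from 9.45 in untreated cells. Its standard error is pooled over all groups, and the step of 0.10 ± 0.38 was not past the threshold (adjusted p 0.915). SKIL, a SMAD corepressor, measured 12.44, 12.51 and 12.04 at 24 h and 12.03, 12.14 and 12.08 at 72 h (-0.24 ± 0.30, adjusted p 0.681). The arrays of both times overlapped in SKIL. Of 36 tested feedback and direct target genes, 25 were higher at 16 h than in untreated cells. From 24 h to 72 h none rose and 1 fell, SMURF2, a ubiquitin ligase that removes TGF-beta receptors (-0.71 ± 0.21, adjusted p 0.0392), with a median step of 0.02 and a range from -0.90 to 1.32. The arrays of the times did not overlap in 13 of the 36 (7 higher and 6 lower at 72 h, against 18.5% and 13.8% of all genes). SMURF2 passed in 0 of the 6 fits that left out 1 array (adjusted p 0.0542 to 0.138), nor with its probe sets averaged (0.190).

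Of 14 tested transcription factors of the epithelial-mesenchymal transition, 1 rose and 1 fell, against 9.12% of all genes in either direction. SNAI2 measured 11.41, 11.16 and 10.77 at 24 h and 11.79, 12.01 and 11.99 at 72 h (+0.81 ± 0.34, adjusted p 0.149), from 7.50 in untreated cells. SNAI1 measured 8.97, 9.01 and 8.12 at 24 h and 8.26, 7.89 and 7.64 at 72 h (-0.77 ± 0.27, adjusted p 0.0735, with overlapping arrays), and ZEB1 9.03, 9.43 and 9.54 against 9.82, 10.00 and 10.15 (+0.66 ± 0.28, adjusted p 0.149). With the experiment number as a block SNAI1 and ZEB1 passed (0.0103 and 0.00339), and SNAI1 also passed without 24 h replicate 3 (0.0197). LEF1, which acts with beta-catenin, rose (+0.74 ± 0.23, adjusted p 0.0491) and SOX9 fell (-0.80 ± 0.20, adjusted p 0.0152), while 2 rose and 2 fell with the block. LEF1 passed in 0 of the 6 fits that left out 1 array (highest adjusted p 0.244), and SOX9 did not pass without 72 h replicate 1 or 2 (0.0534 and 0.0540) or 24 h replicate 1 or 3 (0.0705 and 0.0517). CDH2, N-cadherin, and FN1, fibronectin, had steps of +0.65 ± 0.27 and +0.47 ± 0.26 (adjusted p 0.148 and 0.290). In a fit on only the groups compared, SNAI2, ZEB1, CDH2 and FN1 passed (0.0150, 0.0326, 0.0230 and 0.0209) and LEF1 did not (0.0632). With its probe sets averaged, SOX9 did not pass (0.0573), and the step of ZEB1 was -0.08 (0.835).

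The change at 16 h against untreated cells shares no array with the step, so the pair of comparisons could be crossed. Of 2242 genes higher at 16 h than in untreated cells (15.2%), 182 were lower at 72 h than at 24 h (8.12%, against 4.45% of all genes) and 102 were higher (4.55%, against 4.67%). Of 2733 genes lower at 16 h (18.5%), 200 were higher at 72 h than at 24 h (7.32%) and 127 were lower (4.65%). Reversals thus made up 27.7% of the 657 falls and 29.0% of the 690 rises. With the experiment number as a block the 182 and 200 became 286 and 344. Without 1 array the first count ranged down to 104 (without 72 h replicate 2 or 24 h replicate 1) and the second to 83 (without 72 h replicate 2). They were 30 and 14 without both arrays named with r. At 72 h, 72 of the 182 were still higher than in untreated cells, 97 were not past the threshold and 13 had passed it on the other side. Of the 200, 55 were still lower, 133 were not past the threshold and 12 were past it on the other side.

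**Figure D3:**
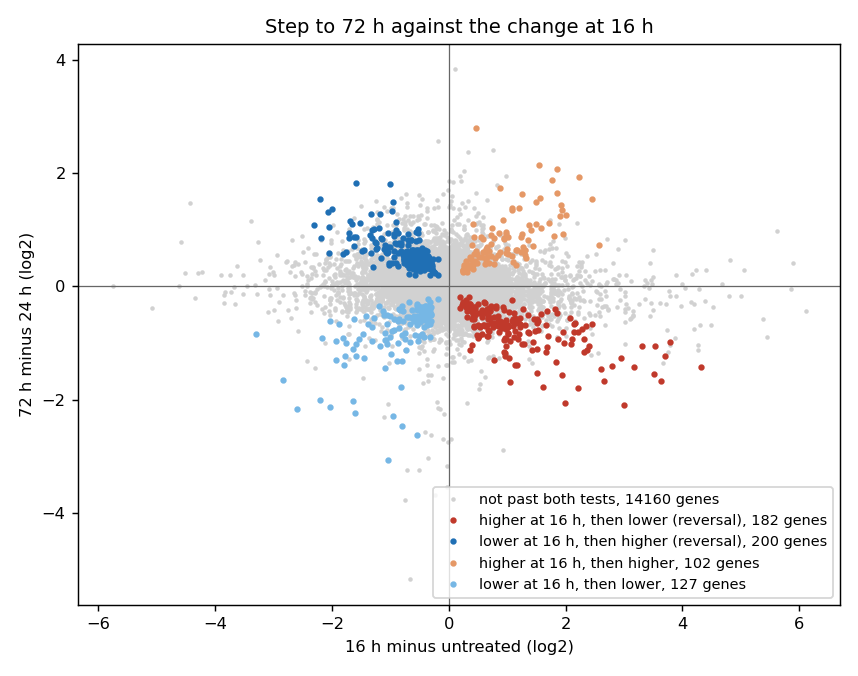
Step from 24 h to 72 h (y axis, log2) against the change at 16 h from untreated cells (x axis, log2) for 14771 genes, with genes past both thresholds in colour. The reversals are the 182 genes at lower right and the 200 genes at upper left.

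The reversed genes that had first gone up hold enzymes, adhesion genes and receptors. ABAT, which breaks down the transmitter GABA, had means of 8.84 untreated and 11.84 at 16 h, and measured 11.75, 11.79 and 11.69 at 24 h and 9.88, 9.57 and 9.50 at 72 h (-2.09 ± 0.19, adjusted p 2.50e-07). RET, the receptor for ligands of the GDNF family, had 7.18 untreated and 10.81 at 16 h, and measured 10.61, 10.82 and 10.94 at 24 h and 9.19, 8.78 and 9.38 at 72 h (-1.67 ± 0.30, adjusted p 0.000978). Both remained above untreated cells at 72 h, by 0.81 and 1.94 (adjusted p 0.00128 and 1.53e-05). ESAM, an immunoglobulin-type adhesion molecule of tight junctions, went from 8.95, 9.30 and 9.26 to 7.67, 7.45 and 7.38 (-1.67 ± 0.25, adjusted p 0.000169) and ended 0.52 above the untreated mean (adjusted p 0.108). TNFAIP6, which binds hyaluronan and modifies its chains, went from 11.14, 10.99 and 11.35 to 9.22, 9.47 and 10.18 (-1.54 ± 0.24, adjusted p 0.000319), while HAS2 rose as given above.

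The integrin subunit genes ITGB4 and ITGA3 were among the reversals. ITGB4, which anchors hemidesmosomes to laminin, had means of 9.95 untreated and 12.15 at 16 h, and measured 11.38, 11.08 and 12.10 at 24 h and 9.92, 9.50 and 9.75 at 72 h (-1.80 ± 0.20, adjusted p 4.95e-06). ITGA3, the laminin-binding alpha 3 subunit, had 9.15 and 11.01 before and measured 11.17, 11.08 and 10.75 against 10.24, 9.98 and 10.00 (-0.93 ± 0.18, adjusted p 0.00243). Both fell with no overlap, which the rule for naming reversals required of ITGB4. ITGB4 fell to a level that differed from untreated cells by -0.22 (adjusted p 0.408), while ITGA3 stayed 0.93 above untreated cells (adjusted p 0.000272). These were the 2 of 16 tested integrin subunits that passed, against 9.12% of all genes in either direction. Both passed in each of the 6 fits that left out 1 array. The list's median step was -0.02.

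Matrix proteases and their inhibitors split. MMP9, gelatinase B, went from 10.44, 9.88 and 9.84 to 8.42, 8.78 and 8.28 (-1.56 ± 0.23, adjusted p 0.000153) after a rise of 1.94 at 16 h. MMP7, matrilysin, had fallen by 16 h (-0.80) and went from 10.70, 9.79 and 10.64 to 7.56, 7.79 and 8.39 (-2.47 ± 0.22, adjusted p 2.50e-07). The metalloproteinase inhibitor TIMP1 fell from 14.21 to 13.32 (-0.88 ± 0.18, adjusted p 0.00281). ADAMTS6, a secreted metalloprotease, rose from 9.66, 9.57 and 9.17 to 11.01, 11.25 and 10.83 (+1.56 ± 0.22, adjusted p 9.29e-05), and PLAT, tissue plasminogen activator, rose by 1.23 ± 0.32 (adjusted p 0.0172, named after its values were seen). PLAT did not pass without 72 h replicate 2 (0.112) or 24 h replicate 3 (0.107), or in a fit on only the groups compared (0.0552). Of 45 tested genes of matrix remodelling, 6 fell and these 2 rose (4.45% and 4.67% of all genes), with a median step of -0.05. The number that fell was 4 without 72 h replicate 3 or 24 h replicate 1, and 2 without both arrays named with r.

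Among the reversed genes that had first gone down, the final level lay below, at or above that of untreated cells. GASK1B, a Golgi-associated kinase homologue, had 10.63 untreated and 9.04 at 16 h, and measured 8.64, 8.59 and 9.39 at 24 h and 10.63, 10.87 and 10.58 at 72 h (+1.82 ± 0.39, adjusted p 0.00475). VLDLR, a receptor for lipoproteins and reelin, had 10.38 and 9.41 before and measured 10.09, 10.14 and 9.41 against 10.95, 11.38 and 11.30 (+1.33 ± 0.15, adjusted p 7.62e-06). GASK1B ended 0.06 above its untreated mean (adjusted p 0.925), and VLDLR ended 0.83 above it (adjusted p 0.000159). PEG10, an imprinted gene derived from a retrotransposon, measured 8.30, 8.71 and 9.03 at 24 h and 9.90, 10.27 and 10.52 at 72 h (+1.55 ± 0.31, adjusted p 0.00302), against 10.95 in untreated cells. TBL1X, a subunit of the NCoR corepressor complex, rose by 1.15 ± 0.17 (adjusted p 0.000153) and stayed 0.52 below untreated cells (adjusted p 0.0189). MXI1, which competes with MYC for its partner MAX, rose by 1.13 ± 0.20 (adjusted p 0.00115), with arrays of 10.26, 10.15 and 10.09 at 24 h and 11.09, 11.57 and 11.23 at 72 h.

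**Figure D4:**
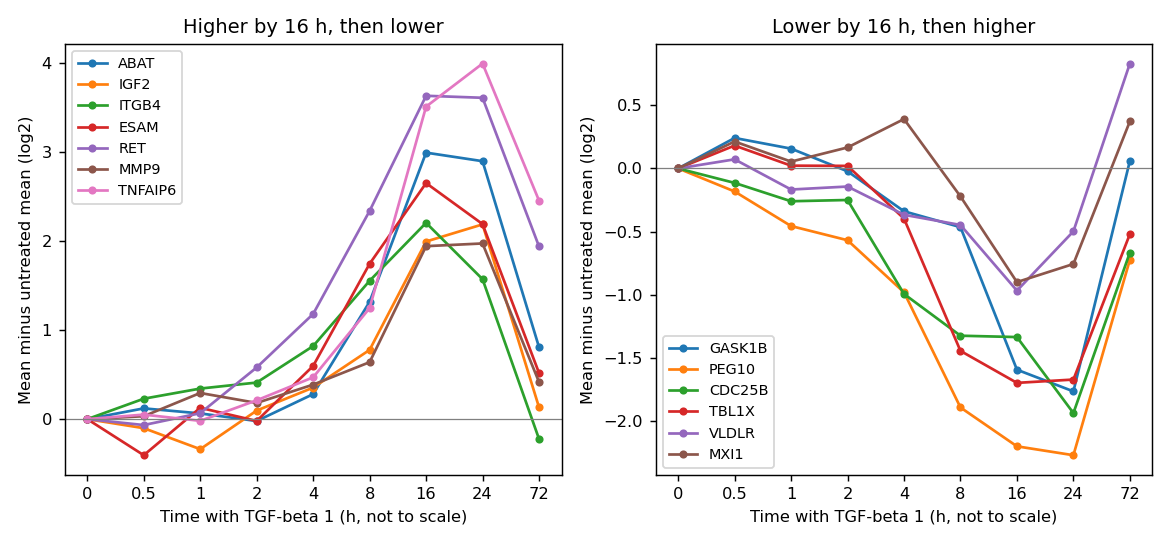
Group mean minus the untreated mean (y axis, log2) over the time course (x axis, hours, not to scale) for genes that were higher (left) or lower (right) at 16 h and turned by 72 h, with means of 3 arrays (2 at 2 h). On the left the 7 genes run from 1.94 (MMP9) to 3.64 (RET) at 16 h and from -0.22 (ITGB4) to 2.46 (TNFAIP6) at 72 h.

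In 683 of the 1347 changed genes (50.7%; 353 higher, 330 lower), every mean from 0.5 h to 24 h lay within 0.5 log2 of the untreated mean. Such a flat first day was found in 8709 of all tested genes (59.0%). DNAJC3, an endoplasmic reticulum co-chaperone that inhibits the kinase PERK, measured 11.69, 11.19 and 11.64 at 24 h and 10.20, 10.05 and 10.10 at 72 h (-1.39 ± 0.16, adjusted p 6.51e-06), from 11.36 in untreated cells. TESC, a calcium-binding protein that stabilises a sodium-proton exchanger, fell by 1.39 ± 0.23 (adjusted p 0.000408). Among late rises besides LUM, EFEMP1, POSTN and IGF1 were CCN3, a matricellular protein, from 7.75, 8.09 and 8.29 to 9.15, 10.67 and 9.86 (+1.85 ± 0.25, adjusted p 4.61e-05), and FPR1, a formyl peptide receptor, from 8.01, 7.92 and 8.12 to 9.18, 10.25 and 9.13 (+1.50 ± 0.22, adjusted p 0.000132). In CCN3 and FPR1 all 72 h arrays lay above all 24 h arrays, as the rule for naming late changes required, with replicate 2 the highest.

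Genes of antigen processing were lower at 72 h. CTSS, the lysosomal protease cathepsin S, which trims the class II invariant chain, measured 10.94, 10.81 and 10.98 at 24 h and 9.61, 8.87 and 9.12 at 72 h (-1.71 ± 0.20, adjusted p 7.62e-06). ERAP1, which trims peptides for class I molecules, went from 10.37, 10.35 and 10.12 to 9.21, 9.24 and 9.04 (-1.12 ± 0.11, adjusted p 5.13e-07), after a rise of 0.36 at 16 h. Under another choice of processing the step of ERAP1 was as small as -0.37. PSMB10, a catalytic subunit of the immunoproteasome, went from 10.18, 9.94 and 9.65 to 9.14, 9.24 and 8.95 (-0.82 ± 0.12, adjusted p 0.000187). None of these 3 genes overlapped between times. Of 19 tested genes, 8 fell and none rose, 18 had a step below 0, and the median was -0.35. Of all genes, 4.45% fell, and 6715 of 14771 had a step below 0. The number that fell was 4 without 72 h replicate 3 or 24 h replicate 1, 5 without 72 h replicate 1, 72 h replicate 2 or 24 h replicate 2, and 3 without both arrays named with r.

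Of 38 interferon-stimulated genes, 8 fell (5 in a fit on only the groups compared) and 1 rose (2 with the experiment number as a block), with a median step of -0.08. Of all genes, 4.45% fell and 4.67% rose. IFITM2 and IFITM3, membrane proteins that block virus entry and whose probe sets may not tell them apart, fell by 1.11 ± 0.16 and 1.01 ± 0.18 (adjusted p 0.000107 and 0.00121). The 1 that rose was IFI44, an interferon-induced cytoplasmic protein (+0.93 ± 0.24, adjusted p 0.0166, named after its values were seen), which passed in 2 of 6 fits that left out 1 array (highest adjusted p 0.117) and not with its probe sets averaged (0.0677). The number that fell was 4 without 72 h replicate 2, 5 without 72 h replicate 1, 72 h replicate 3 or 24 h replicate 1, and 0 without both arrays named with r. NFKB2, the precursor of the p52 subunit of NF-kappaB, fell from 10.18, 10.13 and 9.48 to 8.97, 8.56 and 8.52 (-1.25 ± 0.21, adjusted p 0.000755), though the mean of its 3 probe sets did not pass (0.102).

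Antioxidant genes fell in part. GPX2, a glutathione peroxidase of epithelia, is shown with the 250 bases before its RefSeq start (GRCh38.p14, chr14:64942746-64942995, minus strand, 5' to 3' of the gene), because its fall was the largest of the list. Capitals mark the 1 match to the core of the antioxidant response element, TGACNNNGC on either strand, the element that NRF2 binds.
GPX2: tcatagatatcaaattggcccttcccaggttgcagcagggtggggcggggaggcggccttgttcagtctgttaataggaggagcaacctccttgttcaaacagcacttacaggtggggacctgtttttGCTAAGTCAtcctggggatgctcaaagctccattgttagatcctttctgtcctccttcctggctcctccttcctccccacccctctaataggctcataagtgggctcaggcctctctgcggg
Such a match was in 7 of 28 promoters found for the list and in 11.9% of 11375 promoters of tested genes. The share of the list describes its members and does not depend on the array values. Among genes called in the step, the match was in 59 of 495 promoters of those that fell (11.9%). It was in 62 of 559 promoters of those that rose (11.1%). GPX2 measured 12.68, 12.59 and 13.04 at 24 h and 9.89, 8.87 and 10.39 at 72 h (-3.06 ± 0.22, adjusted p 6.76e-09), from 14.82 in untreated cells. GSR, glutathione reductase, went from 11.56, 11.48 and 11.73 to 10.83, 10.61 and 10.76 (-0.85 ± 0.11, adjusted p 2.07e-05), and ABCC3, an exporter of conjugates, from 13.06, 13.13 and 13.36 to 12.42, 12.39 and 12.66 (-0.69 ± 0.09, adjusted p 2.18e-05). In each of them all 72 h arrays lay below all 24 h arrays. HMOX1, haem oxygenase, went the other way, from 9.54, 9.87 and 8.86 to 10.79, 10.90 and 11.13 (+1.52 ± 0.42, adjusted p 0.0249), but passed in 1 of the 6 fits that left out 1 array (highest adjusted p 0.108). Of 38 tested NRF2 and glutathione genes, 9 fell and 1 rose (3 with the experiment number as a block), and the median step was 0.02. The number that fell was 5 without 72 h replicate 2, 6 without 24 h replicate 1 and 3 without both arrays named with r.

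Among 25 aldo-keto reductases and aldehyde dehydrogenases, AKR1B10 (-0.67), ALDH2 (-0.61), ALDH3A1 (from 9.57 to 7.57), ALDH5A1 (-0.69) and ALDH9A1 (-0.54) fell and none rose. ALDH3A1, a detoxifying aldehyde dehydrogenase, measured 9.80, 9.19 and 9.72 at 24 h and 7.69, 6.88 and 8.13 at 72 h, from 14.20 in untreated cells. All of its 72 h arrays were more than 1 log2 unit below its 24 h arrays. ALDH5A1 did not pass without 72 h replicate 2 (0.120), 72 h replicate 3 (0.0583), 24 h replicate 2 (0.0520) or 24 h replicate 3 (0.0729). The median step of the list was 0.00, and 1 of the falls was called without both arrays named with r. Of 38 respiratory chain subunits, NDUFA9 (-0.40), NDUFB8 (-0.28), UQCRC1 (-0.35), CYC1 (-0.48) and COX8A (-0.23) fell and none rose, with a median step of -0.12 and no step above 0.022. The number was 9 with the experiment number as a block, 2 without 72 h replicate 2, 3 without 24 h replicate 1 or 24 h replicate 3, and 0 without both arrays named with r. NDUFA9 passed in all 6 fits that left out 1 array, CYC1 did not pass without 24 h replicate 3 (0.0509), COX8A without 72 h replicate 2 (0.0563), NDUFB8 without 72 h replicate 2 or 24 h replicate 1 (highest 0.135), and UQCRC1 passed in 1 of the 6 (highest 0.0825). In a fit on only the groups compared, COX8A and NDUFB8 did not pass (0.0544 and 0.0948).

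Genes of the G2 and M phases had steps above 0 throughout, but few passed the test. Many of them are held off early in the cycle by the DREAM complex, which binds the cell cycle genes homology region (CHR, TTTGAA or TTCGAA), and are driven through CCAAT boxes bound by NF-Y. The 250 bases before the RefSeq start (GRCh38.p14, all minus strand, 5' to 3' of the gene) are shown for 3 list members. They have the largest steps among those whose promoter holds both motifs, with members on a single chromosome left out of the choice. They are TOP2A (chr17:40417897-40418146), DLGAP5 (chr14:55191586-55191835) and ASPM (chr1:197146670-197146919), named after their values were seen, with matches to either motif on either strand in capitals.
TOP2A: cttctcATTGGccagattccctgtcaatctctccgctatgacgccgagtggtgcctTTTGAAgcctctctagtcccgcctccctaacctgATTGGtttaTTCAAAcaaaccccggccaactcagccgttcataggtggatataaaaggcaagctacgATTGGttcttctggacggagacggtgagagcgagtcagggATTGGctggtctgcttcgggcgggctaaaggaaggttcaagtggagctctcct
DLGAP5: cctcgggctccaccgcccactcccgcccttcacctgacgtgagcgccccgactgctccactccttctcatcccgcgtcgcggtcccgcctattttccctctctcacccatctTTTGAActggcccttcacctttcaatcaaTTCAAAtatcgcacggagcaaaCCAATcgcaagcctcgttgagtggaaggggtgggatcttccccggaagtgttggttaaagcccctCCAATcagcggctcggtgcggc
ASPM: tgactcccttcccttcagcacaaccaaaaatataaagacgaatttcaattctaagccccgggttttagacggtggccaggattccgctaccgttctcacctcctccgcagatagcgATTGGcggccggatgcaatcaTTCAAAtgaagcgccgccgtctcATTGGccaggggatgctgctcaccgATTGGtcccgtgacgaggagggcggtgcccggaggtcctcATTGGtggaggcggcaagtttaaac
A CHR match was in 26 of 51 promoters found for the 60 tested genes (51.0%), against 10.1% of promoters of tested genes and 2 of 41 for DNA replication and G1/S genes (4.88%). Both motifs were in 21 of the 51 (41.2%), against 4.04% of promoters of tested genes. These shares describe the list and do not depend on the array values.

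TOP2A, which untangles DNA, measured 9.53, 10.15 and 10.31 at 24 h and 12.53, 11.19 and 11.14 at 72 h (+1.62 ± 0.63, adjusted p 0.110, and 0.0312 with the experiment number as a block). DLGAP5, a spindle protein, measured 8.30, 8.73 and 9.18 against 11.24, 9.94 and 9.67 (+1.55 ± 0.67, adjusted p 0.165, and 0.0458 with the block), and ASPM, a spindle pole protein, 8.65, 9.62 and 9.49 against 11.66, 10.34 and 10.26 (+1.50 ± 0.53, adjusted p 0.0825, and 0.0186 with the block). In all 3 genes each 72 h array lay above each 24 h array, and 72 h replicate 1 stood more than 1 log2 unit above the others. Of the 60 tested G2/M genes, 2 rose and none fell, where 4.67% of all genes rose and 4.45% fell. The count of rises was 10 with the block and 20 in a fit on only the groups compared. The 2 that rose in the main fit were CDC25B, the phosphatase that activates CDK1, from 10.28, 10.00 and 10.07 to 11.59, 11.29 and 11.28 (+1.27 ± 0.23, adjusted p 0.00140), and SMC4, a condensin subunit, from 11.04, 11.40 and 11.48 to 12.57, 12.14 and 12.20 (+1.00 ± 0.24, adjusted p 0.0120). SMC4 did not pass without 72 h replicate 1 (0.0645) or 24 h replicate 1 (0.0729). All 60 steps lay above 0 with a median of 1.03 and a range from 0.17 to 1.62, and in 40 genes every 72 h array was above every 24 h array, an order found in 18.5% of all genes tested. A step above 0 was found in 8053 of all 14771 genes tested.

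The median level of the G2/M list by array shows how much single arrays carry. It was 8.82, 9.43 and 9.06 at 24 h and 10.83, 9.71 and 9.60 at 72 h, and 11.82, 9.64 and 11.05 in untreated cells, so that the 72 h arrays lay within the range of untreated cells or just below it. Without 72 h replicate 1 the median step was 0.66, with 59 of 60 genes above 0, and without both 24 h arrays named with r it was also 0.66, with 57 above 0. DNA replication and G1/S genes, of which 44 of 50 were lower at 16 h than in untreated cells, had a median step of 0.14. It turned to -0.23 without both arrays named with r. In that list GINS3, of the replicative helicase (+0.67), and CDK4, a kinase of the G1 phase (+0.46), rose and none fell. Of all genes, 4.67% rose. GINS3 did not pass without 72 h replicate 1 (0.0625), 24 h replicate 1 (0.0705) or 24 h replicate 3 (0.0533).

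**Figure D5:**
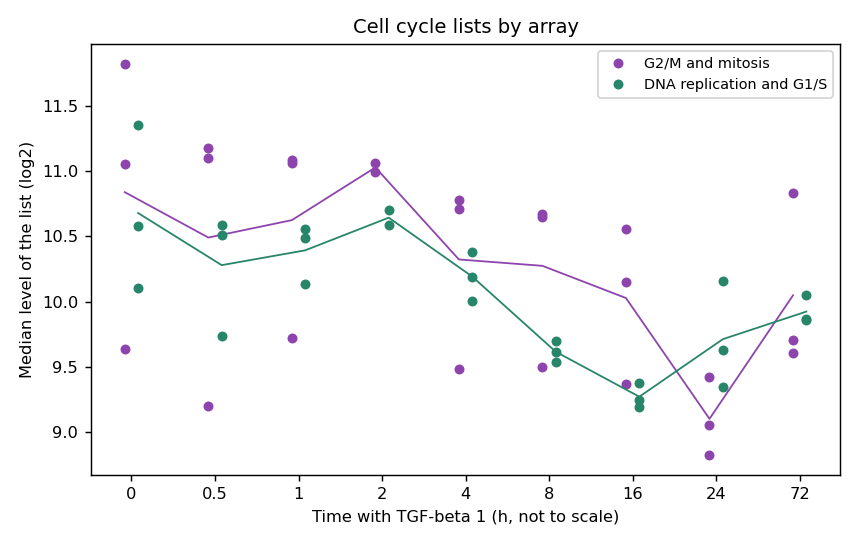
Median log2 level of the 60 G2/M genes and the 50 DNA replication genes on each array (points) with the mean of the group (line), over the time course (x axis, hours, not to scale). The G2/M points at 24 h lie between 8.82 and 9.43, and those at 72 h between 9.60 and 10.83.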

How the data were processed

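RNA from 26 A549 samples was hybridised to Affymetrix HG-U133 Plus 2.0 arrays. Per the file headers, the authors took trimmed means of probe differences, quantile-normalized them and deposited log10 of the floored signal plus an offset, which was turned into log2 here. The deposited count of probe sets detected and the actin 3'/5' ratio per array served as quality measures. One probe set per gene (19539 genes, named through Entrez numbers) was kept, the one with the highest mean. Probe sets whose names end in _x_at were taken only where a gene had no other. Control probe sets and those annotated to several genes or to none were left out. Genes above the array median on at least 2 arrays were tested (14771, with 4768 removed). limma 3.58.1 in R 4.3.3 was fitted to all 26 arrays in 9 groups with a mean-variance trend, so that the standard errors pool the spread of all groups, and p-values were adjusted by Benjamini-Hochberg over all genes tested at a threshold of 0.05. The p-values measure the spread between repeats of one cell line, and the number of arrays limits the precision. An exact permutation test of 3 against 3 arrays cannot go below 0.1, so none is given.

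The labels give each sample an experiment number, and do not say what samples of one number share. Deviations of same-numbered 24 h and 72 h arrays from their group means correlated at r = 0.052, 0 and 0.216, so that not every pair was above 0.1. The array numbers of untreated replicates 2 and 3 stand in each other's run, so their experiment numbers may be exchanged, which touches every value given with the block. The number was left out of the fit and used as a block in an alternative. Genes were named as the largest rises and falls, as the largest changes of each pattern (late, continued, reversed) and as list members. For the rises, falls and patterns, only genes past the threshold with all 72 h arrays beyond all 24 h arrays were candidates. Their higher group mean also had to lie above the array median. The lack of overlap in these genes is therefore fixed by the choice and is no separate evidence. The members and lists were chosen with earlier results of these data known. Promoters are RefSeq sequences of GRCh38.p14, used for letters only. The fit was tested on simulated data. Alternatives were the block, the groups in the fit, the filter, the scaling, the offset, the variance prior, the mean of probe sets, stricter thresholds and each array left out.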

Additional observations from a re-analysis of the deposited data

How the results depend on the processing

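Of the 112 genes given with a value, 100 were past the threshold, 73 of them in all 6 fits that left out 1 array and 45 without both 24 h arrays whose names end in r. Leaving out 1 array in turn gave between 628 and 1147 changed genes, 290 to 593 of them higher and 338 to 554 lower, and between 104 and 178 reversals downwards and 83 and 177 upwards. An adjusted p under 0.01 left 539 genes (237 higher, 302 lower, with 77 and 58 reversals), and a change of at least 2-fold left 223 (101 and 122, with 32 and 14). Without both arrays named with r, an alternative added after seeing the data, 147 remained past the threshold (53 and 94, with 30 and 14). With the replicate block, that is, the experiment number, which may be exchanged between untreated replicates 2 and 3, 1972 genes changed (1035 higher, 937 lower, with 286 reversals downwards and 344 upwards). Where the block changed the call of a gene or moved a list's count by over 1.5 times and the list is described, the value stands beside the result. The centred scaling gave 561 higher and 723 lower genes, against 690 and 657. When all probe sets of a gene were averaged, the step of S100A6 turned to 0.0477 and that of ZEB1 to -0.0819, neither past the threshold, and the cause was not tested. In that setting 9 further genes lost their call (ACTA2, COL5A2, GATA6, IFI44, NFKB2, PAPPA, SFRP1, SMURF2 and SOX9). FBN2, LEF1, POSTN and RUNX2 had no value with their probe sets averaged, so whether their calls hold there was not tested. A fit on only the groups compared ended 6 calls (CDH11, COX8A, INHBA, LEF1, NDUFB8 and PLAT) and added 8. A prior without trend ended 6 (COL5A2, GATA6, KRT8, S100A6, SMURF2 and UQCRC1), no filter 3 and the centred scaling 3 (FBN2, GATA6 and LEF1 in both), a second quantile normalization 3 (FBN2, GATA6 and SMURF2) and a robust prior 1 (LEF1). Some steps that kept their call were much smaller under another choice of processing. The smallest were -0.37 for ERAP1 (-1.12 in the main fit), -0.45 for ERBB3 (-1.29) and -1.29 for AMBP (-2.62). For GPX2, KCNMA1 and MUC5B they were -1.65 (-3.06), 0.92 (2.13) and -3.19 (-5.17). The smallest for IGFL2 and NOX4 were 3.63 (3.82) and 2.63 (2.80). Which choice gave each value is not given here. Values at the floor of the scale limit the size of falls such as those of MUC5B and VTN.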
